A study of Mus musculus with 2 samples.

Results

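The respiratory chain genes were the nuclear genes whose mouse symbol names a subunit of complexes I to V or cytochrome c. They were found by symbol alone (the Nduf genes of classes a, b, c, s and v, *Sdha* to *Sdhd*, Uqcr, Cox4 to Cox8, Atp5, *Cyc1* and *Cycs*), with no measured value. Of 100 symbols of the gene table that match, 86 are protein-coding and 14 are pseudogenes. Spots on the array carried 85 of the protein-coding genes, of 20283 named genes on the array. *Ndufb1* and the 14 pseudogenes had no named spot. The mitochondrially encoded subunits were not analysed here, since 0 of the 13 listed had a named spot.

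The study asked what *Dullard* (*Ctdnep1*), a phosphatase of the nuclear envelope, does in WNT signalling and in the forming of primordial germ cells, the precursors of eggs and sperm. RNA of 1 *Dullard+/-* and 1 *Dullard-/-* whole embryo at E7.5, given as C57BL/6, was labelled with Cy3 and measured on Agilent arrays of the whole mouse genome. Each embryo had its own array, and the slide and the scan were shared. The control embryo carries a mutant allele too, and no wild-type array was analysed here. A null allele and a LacZ allele are described for the line, and the allele of the arrayed embryos is not stated in the labels. With 1 embryo per genotype no test was possible, so no p-value is given and each difference describes these embryos.

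The signals are background-subtracted spot intensities, taken on the log2 scale relative to the 75th percentile of each array, which was 286 for the *Dullard+/-* and 264 for the *Dullard-/-* embryo. A log2 fold change is the *Dullard-/-* minus the *Dullard+/-* value, averaged over those probes of a gene that stood well above background in both embryos, which gave 14770 genes. The *Ctdnep1* probe read 672 in the *Dullard+/-* and 144 in the *Dullard-/-* embryo (log2 fold change -2.11), in the direction of the labels. Of the marker lists for the parts of a whole embryo, the epiblast gene *Pou5f1* was at -0.06, *Fgf5* at 0.89 and the streak genes *Mixl1* and *T* at 1.39 and -1.19. The log2 fold changes of 6 of 6 visceral endoderm markers lay between -0.34 (*Cubn*) and 0.27 (*Afp*). The 5 trophoblast markers ranged from -0.74 (*Ascl2*, signals 120 and 66.5) to 1.07 (*Prl3d1*, dim at 17.4 and 33.8). *Elf5* was at -0.08, *Hand1* at -0.10 and *Gcm1* at -0.00. Blood markers were further apart, with the primitive globin *Hbb-bh1* at -2.08 and the adult globins *Hba-a1* and *Hba-a2* at -0.95 and -1.38. *Hbb-bt*, *Hbb-bs* and *Hbb-y* cleared the background in the *Dullard+/-* embryo alone, and *Hba-x* in neither. Of 4 decidua markers, *Dcn* and *Prl8a2* were not well above background on either array, *Des* was at 0.25 and *Pgr* at -0.55. The part of these tissues in the values below was not tested, and in whole embryos fewer cells of a type and less RNA per cell cannot be told apart.

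The respiratory chain sits in the inner mitochondrial membrane. Complex I takes electrons from NADH and complex II from succinate, complex III passes them to cytochrome c, and complex IV hands them to oxygen. Complexes I, III and IV pump protons, and complex V, the ATP synthase, lets the protons back to make ATP. Most subunits are encoded in the nucleus, and nuclear respiratory factor 1 (NRF1), the ETS factor NRF2 (GABP) and YY1 are known to act on many of their promoters, with the coactivators of the PGC-1 family working through such factors and through ERRα.

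The promoters of the family were read for the boxes of these factors, since a shared box is a feature that the symbols did not use. RefSeq promoters of GRCm38.p6 were matched for 69 of the 85 genes, from 250 bases before to 50 bases after the annotated start. The NRF1 box, searched on both strands as GCGCA and GCGC with any base between them, was in 17 of the 69 windows (24.6%), against 7.17% of the windows of 17492 protein-coding genes and 13.5% of those of genes in the brightest 25% of the array. Its palindromic form, with T as that base, was in 5 windows (7.25%), against 1.47% of all and 2.66% of the brightest 25%. In mitochondrial ribosomal proteins the NRF1 box was in 18.8% of the windows and its palindromic form in 4.35% (3 windows). In cytosolic ribosomal proteins these shares were 8.47% and 3.39% (2 windows). The YY1 core AAGATGGC was in 10 windows (14.5%, against 3.57% of all and 6.56% of the brightest 25%), and the ETS core CCGGAAG in 17 (24.6%, against 12.9% and 23.8%). Ribosomal protein genes held the YY1 and ETS cores at shares of the same order. The YY1 core was in 17.4% of the windows of mitochondrial and 10.2% of those of cytosolic ribosomal proteins, and the ETS core in 37.7% and 40.7%. Of the general promoter elements, the GC box GGGCGG was in 42% of the windows, against 49.2% of all and 69.6% of the brightest 25%. TATAAA was in 11.6% (8 windows), against 14.8% of all and 8.47% of the brightest 25%. Neither was more frequent than over all genes, but TATAAA was more frequent than in the brightest 25%. At least 1 of the NRF1, ETS and YY1 letters was in 38 of 69 windows (55.1%), against 21% of all windows, 38% of the brightest 25% and 62.3% and 57.6% of those of mitochondrial and cytosolic ribosomal proteins. These are matches of letters, not measured binding.

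Shown are the 150 bases just before the start, on the strand of the gene, of 3 genes with the palindromic NRF1 box (*Ndufa11*, *Atp5g2* and *Atp5k*), of *Sdhd* with an NRF1 box and an ETS core, and of *Cox7a1* and *Cox7a2*, the highest and the lowest gene of the family in the arrays. Capitals mark the NRF1 box, the ETS core (on the reverse strand in *Sdhd*) and, in *Cox7a2*, the GC box. The stretch of *Cox7a1* held none of the letters searched.
Ndufa11, chr17:56717612-56717761, plus strand: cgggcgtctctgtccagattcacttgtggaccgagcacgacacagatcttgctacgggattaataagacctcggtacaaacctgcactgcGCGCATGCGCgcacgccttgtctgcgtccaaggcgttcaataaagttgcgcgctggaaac
Atp5g2, chr15:102671048-102671197, minus strand: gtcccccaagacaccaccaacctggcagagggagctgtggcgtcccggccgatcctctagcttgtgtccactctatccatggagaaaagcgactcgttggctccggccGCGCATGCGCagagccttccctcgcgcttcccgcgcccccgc
Atp5k, chr5:108434400-108434549, minus strand: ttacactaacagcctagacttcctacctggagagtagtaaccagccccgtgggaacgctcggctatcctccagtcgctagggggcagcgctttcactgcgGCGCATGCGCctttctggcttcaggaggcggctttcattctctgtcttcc
Sdhd, chr9:50603850-50603999, minus strand: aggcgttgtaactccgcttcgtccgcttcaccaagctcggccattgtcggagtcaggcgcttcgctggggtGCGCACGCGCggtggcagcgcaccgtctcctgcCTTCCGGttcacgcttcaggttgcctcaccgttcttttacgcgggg
Cox7a1, chr7:30184021-30184170, plus strand: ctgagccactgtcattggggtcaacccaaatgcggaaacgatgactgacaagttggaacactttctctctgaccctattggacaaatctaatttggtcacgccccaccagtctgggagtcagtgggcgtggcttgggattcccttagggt
Cox7a2, chr9:79759854-79760003, minus strand: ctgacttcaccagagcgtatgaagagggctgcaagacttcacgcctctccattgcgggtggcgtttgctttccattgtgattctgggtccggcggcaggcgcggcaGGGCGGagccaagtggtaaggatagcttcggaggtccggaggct

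Respiratory chain transcripts were at nearly the same level in both embryos. Of the 85 genes, 82 were measured on both arrays, and their median log2 fold change was -0.00 (SD between genes 0.126), against 0.01 (SD 0.33) over all 14770 genes. None of the 82 reached a 1.5-fold difference, which 7.29% of all genes passed (3.92% upwards and 3.37% downwards), nor a 2-fold one (0.894% upwards and 0.765% downwards). Among the brightest 25% of genes, where 75 of the 82 lie, 0.867% passed 1.5-fold (0.704% upwards and 0.162% downwards). The log2 fold changes ran from -0.33 for *Cox7a2* (1.26-fold lower) to 0.42 for *Cox7a1* (1.34-fold higher), which encode forms of the same subunit of complex IV. Within 1.2-fold were 79 of the 82 (96.3%), against 71% of all genes and 89.8% of the brightest 25%. The 3 outside it were *Cox7a1*, *Cox7a2* and *Ndufs8*, where 29% of all genes and 10.2% of the brightest 25% lay outside. Of the 82, 40 lay above 0 and 42 below, where 52% of all genes lay above and 48% below, and in the brightest 25% of genes 58.3% above and 41.7% below. Without scaling between the arrays 15 lay above 0 and 67 below, and with scaling to the median 52 lay above, so the sign of a small difference rests on the scaling.

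**Figure D1:**
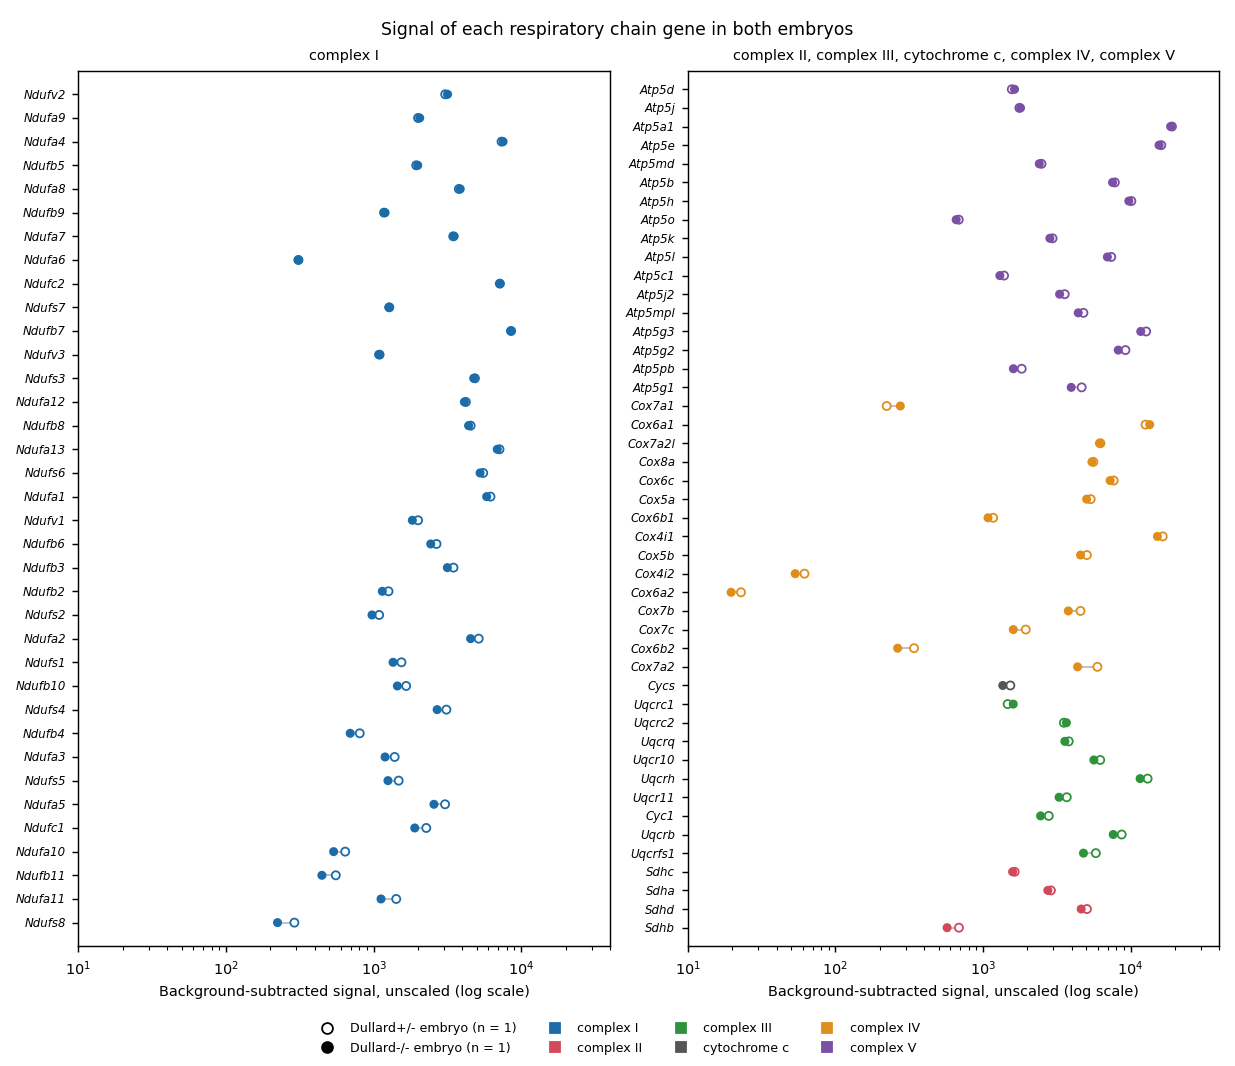
Background-subtracted signal, not scaled between arrays, of the 82 measured genes in the Dullard+/- (open) and the Dullard-/- embryo (filled), on a log axis, with a panel for complex I and another for the other complexes and cytochrome c. Each line joins the values of a gene, which are geometric means over its probes, and positions of different genes are not comparable in transcript amount. The open and filled points nearly coincide in most genes, and the signals span 22.9 to 19076 in the Dullard+/- embryo.

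The error given with a log2 fold change is that of replicate spots of probes of like brightness, 0.01 to 0.22 for these genes (median 0.04). It leaves out the spread between embryos. A wider technical scale is the pooled SD between probes of the same gene. It was 0.0954 over the 23 genes of the family with several probes, against 0.156 in the brightest 25% and 0.29 over all genes. This SD leaves out the spread between embryos too, since the probes of a gene read the RNA of 1 embryo on each array. Of the 82 genes, 8 lay more than 2 times that SD (0.19) from 0. At least 29% of all genes and 10.2% of the brightest 25% lay as far, since those shares were outside 1.2-fold, a larger size. The 8 include *Cox7a1*, *Cox6b2*, *Ndufs8* and *Ndufb11*, which are outside the brightest 25%, where the SD between genes of the family was 0.248. The count is therefore no call of differences. The SD between the 59 genes with 1 probe was 0.136. In 9 of the 23 genes with several probes the probes lay on both sides of 0. *Uqcrc2* shows the precision of a single bright probe. It was spotted 10 times, with signals of 3391 to 3727 in the *Dullard+/-* and 3520 to 3894 in the *Dullard-/-* embryo, and the log2 fold changes of the spots ran from 0.14 to 0.21 (SD 0.02).

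**Figure D2:**
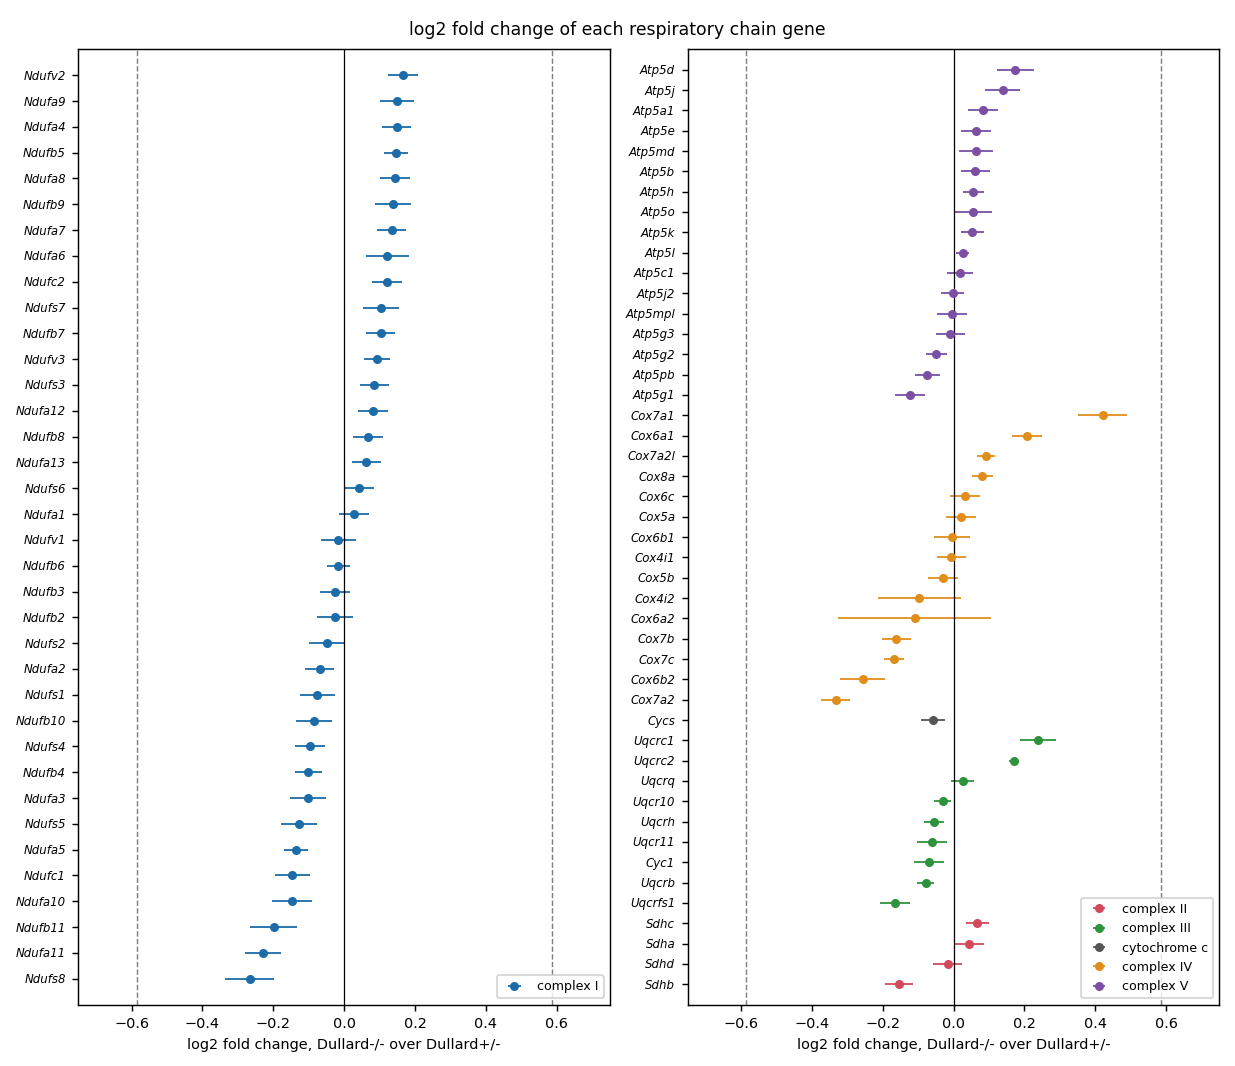
log2 fold change (Dullard-/- over Dullard+/-) of each of the 82 measured genes, scaled to the 75th percentile of each array and ordered within each complex. Bars are the error from replicate spots (1 embryo per genotype), dashed lines mark 1.5-fold, and each gene lies between them, from Cox7a2 at -0.33 to Cox7a1 at 0.42.

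Complex I, the NADH dehydrogenase and the largest group of the family, was split evenly around 0. All 36 genes were measured, 18 above and 18 below 0, with a median log2 fold change of 0.01 (SD 0.123). The 7 core subunits, which carry the flavin and the iron-sulfur clusters or form the core fold that is conserved from bacteria, had a median of -0.02, with 3 above and 4 below 0. They held both ends of the complex. *Ndufs8*, an iron-sulfur subunit, was the lowest, with a signal of 290 in the *Dullard+/-* and 223 in the *Dullard-/-* embryo (log2 fold change -0.27, error 0.07). *Ndufv2*, an iron-sulfur subunit of the NADH-oxidizing module, was the highest, at 3057 and 3170 (log2 fold change 0.17, error 0.04). The other core genes lay between -0.08 (*Ndufs1*) and 0.10 (*Ndufs7*).

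The 29 accessory subunits of complex I, which surround the core and serve its assembly and stability, were all within 1.2-fold, with a median log2 fold change of 0.03 and 15 above 0. *Ndufa11*, a membrane subunit, read 1423 and 1123 (log2 fold change -0.23, error 0.05), so the *Dullard-/-* signal was lower. *Ndufb11*, an X-linked subunit of the membrane arm, stood at -0.20, but its probes did not agree. The bright one read 5046 and 4719 (log2 fold change 0.02) and the dim one 60.9 and 42.2 (log2 fold change -0.42), the largest gap between probes of a gene in the family (0.43). At the upper end were *Ndufa9*, with 2002 and 2053, and *Ndufa4*, with 7361 and 7542, both at a log2 fold change of 0.15. *Ndufa9* lies at the junction of the arms of complex I, and *Ndufa4*, grouped here by its symbol, is known to be a subunit of complex IV. The other X-linked genes of the family were *Ndufa1* at 0.03 and *Cox7b* at -0.16.

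Complex II, succinate dehydrogenase, joins the chain to the citric acid cycle and has 4 subunits, all nuclear. Their median log2 fold change was 0.01. The catalytic subunits lay on either side of 0, the flavoprotein *Sdha* at 0.04 (signals 2886 and 2750) and the iron-sulfur subunit *Sdhb* at -0.15 (687 and 571). The membrane anchors did too, with *Sdhd* at -0.02 (5064 and 4629). For *Sdhc* the value of 0.07 is the mean of a probe at -0.09 (2669 and 2326) and another at 0.22 (1007 and 1083), so its direction depends on the probe. The signal of *Sdha* was lower in the *Dullard-/-* embryo by less than the 75th percentile was, which is how a lower raw signal gives a positive scaled value here and in other genes.

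Complex III, which carries electrons from ubiquinol to cytochrome c, had a median log2 fold change of -0.06 over 9 genes (SD 0.129), with 3 above and 6 below 0. The core proteins, large subunits on the matrix side related to processing peptidases, were the highest of the complex. *Uqcrc1* read 1470 and 1603 (log2 fold change 0.24, error 0.05) and *Uqcrc2* read 3533 and 3676 (0.17, error 0.01), higher in the *Dullard-/-* embryo even without scaling. The redox carriers lay below 0, the Rieske iron-sulfur protein *Uqcrfs1* at -0.17 (5818 and 4796) and cytochrome c1 (*Cyc1*) at -0.07 (2791 and 2458). The 5 small subunits lay between -0.08 (*Uqcrb*) and 0.03 (*Uqcrq*). Both core proteins thus lay above the other 7 genes of the complex, at 0.17 or higher against 0.03 or lower, and did so under the 4 alternatives that can change their order (quantile normalization, loess, normexp and the brightest probe). The difference between *Uqcrc1* and *Uqcrfs1* was 0.40 on the log2 scale and ran from 0.39 to 0.43 over the settings. The grouping by role was made with values known and carries no test.

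Cytochrome c itself, the soluble carrier between complexes III and IV, was measured through *Cycs*. The mean of the probes that stood well above background was 1533 in the *Dullard+/-* and 1362 in the *Dullard-/-* embryo (log2 fold change -0.06, error 0.03). A further *Cycs* probe read 4.25 and 2.09 and was not well above background on either array.

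Complex IV, cytochrome c oxidase, varied most within the family (SD 0.186), although its median log2 fold change was -0.01, with 6 above and 9 below 0 of 15 measured genes. Several of its nuclear subunits come as isoforms, a broadly expressed form and a form known from heart and skeletal muscle, lung or testis. The 11 broadly expressed genes had a median of -0.00 (SD 0.148). Without *Cox7a2*, left out as the lowest gene, the SD was 0.113, and leaving out an extreme gene lowers an SD by construction. The 4 measured genes of the 7 tissue-restricted forms had a median of -0.10 (SD 0.296). *Cox7b2*, *Cox8b* and *Cox8c*, restricted to testis or muscle, were not well above background on either array.

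The COX7A isoforms gave both extremes of the family. *Cox7a1*, the heart and muscle form, read 222 in the *Dullard+/-* and 275 in the *Dullard-/-* embryo (log2 fold change 0.42, error 0.07). *Cox7a2*, the broadly expressed form, read 5960 and 4375 (log2 fold change -0.33, error 0.04). The *Dullard-/-* embryo was thus higher in the one and lower in the other, also in the unscaled signals. The difference between the pair, which scaling does not change, was 0.75 on the log2 scale (a ratio of 1.69 between their fold changes) and ran from 0.60 to 0.78 over the 10 settings. Each rests on 1 probe, and over those settings *Cox7a1* stayed between 0.30 and 0.46 and *Cox7a2* between -0.45 and -0.29. The third relative, *Cox7a2l*, a supercomplex assembly factor, was at 0.09, with probes at -0.06, 0.17 and 0.16.

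In the other measured isoform pairs the restricted form had the lower log2 fold change, for *Cox4i2* by less than its error. *Cox6b2*, the testis form, was at a log2 fold change of -0.26 (signals 341 and 264, error 0.06), beside *Cox6b1* at -0.00 (1173 and 1082), a difference of 0.25. *Cox6a1* was at 0.21 (12634 and 13484) and its muscle form *Cox6a2* at -0.11 (22.9 and 19.6), a difference of 0.32. The error of *Cox6a2* was 0.22, larger than its difference from 0, and under normexp, another background correction that models signal and background together, it stood at 0.06. *Cox4i1* was at -0.01 (16519 and 15211) and the lung form *Cox4i2* at -0.10 (61.7 and 53.4, error 0.12). Among the subunits without a measured isoform partner, *Cox7c* was at -0.17, with its 3 probes at -0.20, -0.18 and -0.12. *Cox7b* was at -0.16 (4580 and 3787) and *Cox8a*, the broadly expressed form of its subunit, at 0.08 (5594 and 5472). *Cox5a*, *Cox5b* and *Cox6c*, which have a single form, lay between -0.03 and 0.03.

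Complex V, the ATP synthase, had the smallest SD of the 5 complexes (0.0728), with a median log2 fold change of 0.05 over 17 genes, 11 above and 6 below 0. The catalytic part, with the head and the central stalk, lay above 0 in 5 of 5 genes, with a median of 0.06. Over all genes 52% lay above 0. In the brightest 25%, where the genes of complex V lie, 58.3% did, and the median was 0.03. The members of the catalytic part were *Atp5d* at 0.17 (1567 and 1636), *Atp5a1* at 0.08 (19076 and 18687), *Atp5e* and *Atp5b* at 0.06 and *Atp5c1* at 0.02. The proton-carrying ring is built from 1 protein sequence that 3 genes encode with different import signals, and 3 of 3 of these lay below 0. Below 0 were 48% of all genes and 41.7% of the brightest 25%. *Atp5g1* was at -0.12 (4663 and 3961), *Atp5g2* at -0.05 (9233 and 8255) and *Atp5g3* at -0.01 (12755 and 11723). The genes of the catalytic part also lay above the ring genes under the 4 alternatives that can change their order, which use the same arrays. Under normexp the lowest catalytic gene was at -0.0228 and the highest ring gene at -0.0253. *Atp5c1* and *Atp5g3* are 0.03 apart, less than the SD between probes, and without scaling 4 of the 5 catalytic genes are below 0 too. This grouping by role was also made with values known and carries no test. How often such groups separate among all genes was not counted.

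The peripheral stalk had a median of 0.06, like the catalytic part, and the membrane subunits one of 0.03. In the peripheral stalk, which holds the head still, *Atp5j* was at 0.14 (1765 and 1797), *Atp5h* and *Atp5o* at 0.06, and *Atp5pb* at -0.07 (1830 and 1608). The 5 small membrane subunits, some of which join the enzyme into dimers, ran from -0.00 (*Atp5mpl*) to 0.06 (*Atp5md*). *Atp5l* has the most probes of the family, 5, and they spanned 0.10 on the log2 scale, with 1 of them below 0.

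**Figure D3:**
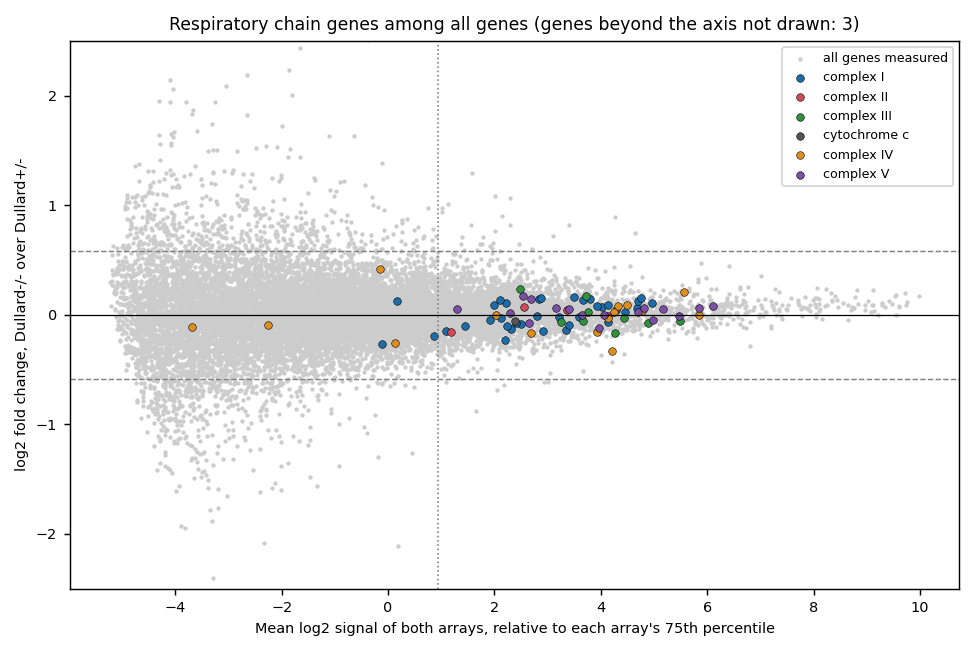
log2 fold change (Dullard-/- over Dullard+/-) against the mean log2 signal of both arrays relative to the 75th percentile, for 14770 genes (grey) and the 82 respiratory chain genes (coloured by complex). Dashed lines mark 1.5-fold and the dotted line the start of the brightest 25%. The spread of all genes narrows with signal, and 75 of the 82 genes lie in the narrow part.

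The family is bright on these arrays, and the spread of all genes falls with signal. The 75 genes of the brightest 25% had an SD of 0.11, against 0.168 for the 3693 genes of that range, and 74 of them were within 1.2-fold. The 7 genes outside it had an SD of 0.248. These were *Cox7a1*, *Cox6b2*, *Cox4i2*, *Cox6a2*, *Ndufs8*, *Ndufa6* and *Ndufb11*, and they include the highest gene of the family, the lowest of complex I and the lowest tissue-restricted form. *Cox7a2*, *Uqcrc1*, *Uqcrc2* and *Cox6a1* lie in the bright part.

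The log2 fold changes of genes with and without an NRF1 box in the promoter window both had a median close to 0. The 17 with a box, *Ndufa11*, *Atp5g2*, *Atp5k* and *Sdhd* among them, had a median log2 fold change of 0.04 and ran from -0.23 (*Ndufa11*) to 0.24 (*Uqcrc1*), and the 50 measured genes without one had a median of -0.00. For the ETS core the medians were 0.05 with and -0.01 without, and for the YY1 core 0.02 on both sides. No test was run on these medians.

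Genes that work with the chain were set beside it as lists, chosen with earlier results known. The assembly factors, which insert cofactors and join subunits, were more spread (SD 0.186) around a median of -0.04, with 44 of 47 listed measured, 19 above and 25 below 0, and none past 1.5-fold. The lowest was *Cox10*, which makes the heme of complex IV, with signals of 28.1 and 17.6 (log2 fold change -0.56, error 0.22, and -0.04 under normexp). *Atpaf1*, which helps assemble the catalytic part of complex V, was at -0.42 (142 and 97.7, and -0.23 under normexp). For complex II, the dim *Sdhaf3* (69.5 and 49.3) and *Sdhaf2* (68.6 and 49.3) were at -0.38 and -0.36, each with 1 probe and an error of 0.12. The brighter *Sdhaf4* (303 and 261) was at -0.10 and *Sdhaf1* (303 and 303) at 0.11. For complex III, 5 of 5 measured factors lay above 0 (median 0.08), where 52% of all genes did. *Uqcc1* (0.02, error 0.09) and *Uqcc3* (0.05, error 0.06) were within their error. Without scaling, which shifts each gene by -0.11, these and *Uqcc2* (0.08) lie below 0. The highest was *Bcs1l*, which inserts the Rieske protein, at 0.25, with both of its probes alike (0.24 and 0.26). *Uqcrfs1* itself was at -0.17. Of 3 subunits or relatives that the symbols leave out, *Ndufab1*, the acyl carrier of complex I, was at -0.24, the ATPase inhibitor *Atpif1* at 0.09 and *Ndufa4l2* at 0.36.

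Other large sets of housekeeping genes also had medians close to 0. The citric acid cycle and pyruvate dehydrogenase genes had a median of 0.01 (SD 0.102, 17 of 17 measured) and ran from -0.12 (*Mdh2*) to 0.24 (*Pdha1*). Mitochondrial ribosomal proteins, which build the machine that translates the mitochondrially encoded subunits, had a median of -0.04 (SD 0.137, 77 of 78 measured), with 33 above and 44 below 0, from -0.34 (*Mrpl37*) to 0.25 (*Mrps9*). Cytosolic ribosomal proteins had a median of 0.03 (SD 0.114, 78 of 79 measured), with 56 above and 22 below 0. The lowest cytosolic gene, *Rpl39l*, a copy of *Rpl39*, was at -0.65, from 1 dim probe (signals 35.9 and 21.2, error 0.20). It was the 1 gene of these 3 sets past 1.5-fold, a size that 7.29% of all genes passed. The highest cytosolic gene was *Rps15a* at 0.27.

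The regulators of mitochondrial biogenesis were the most spread of the lists (SD 0.359, median 0.05, 15 of 15 measured, 12 above 0). Over all genes 52% lay above 0. Past 1.5-fold were 2 of the 15, both higher in the *Dullard-/-* embryo, where 3.92% of all genes passed that size upwards. The list was chosen with results known. *Ppargc1a*, the coactivator PGC-1α, read 19.2 and 31.7 (log2 fold change 0.84, error 0.20). *Esrra*, the orphan receptor ERRα that it works through, read 126 and 203 (0.80, error 0.08). Under normexp they stood at 0.33 and 0.50, inside 1.5-fold, and a further *Ppargc1a* probe was not well above background on either array (1.95 and 1.75). Of the factors whose letters were searched in the promoters, *Yy1* was at 0.48 (580 and 746) and *Gabpa* at 0.15. The other GABP genes, *Gabpb1* and *Gabpb2*, were at 0.05 and -0.32, the latter dim (55.3 and 40.8, error 0.14) and at -0.04 under normexp. *Nrf1* was at -0.38, but its probes stood at -0.77, -0.47 and 0.10, and the brightest of them (641 and 634) was the one above 0. *Tfam*, which packs and transcribes mitochondrial DNA, was at 0.16. Its brighter probes (636 and 616, 490 and 475) both stood at 0.07, and the dim one (89.2 and 104) at 0.33.

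**Figure D4:**
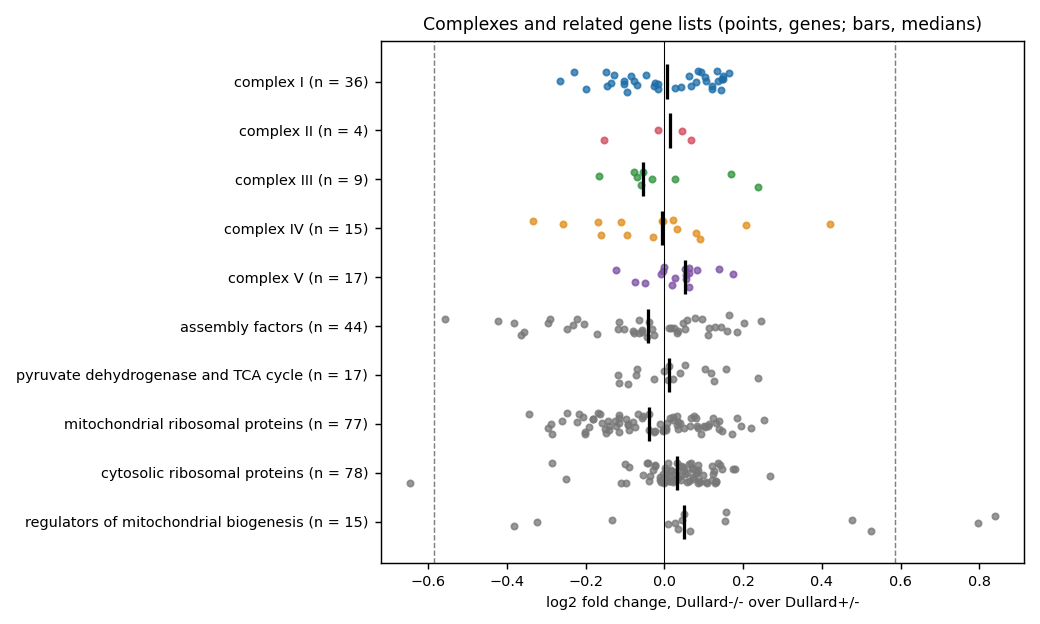
log2 fold change (Dullard-/- over Dullard+/-) of the genes of complexes I to V and of 5 related lists, with 1 point per gene (vertical scatter is for legibility), bars at the medians and dashed lines at 1.5-fold. Medians lie between -0.06 (complex III) and 0.05 (complex V and the regulators), and the points past the dashed lines are Rpl39l, Ppargc1a and Esrra.

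Of the 9 alternatives, 3 add a constant to all genes (no scaling, scaling to the median and the processed table) and cannot change the order of the complex medians. Of the other 6, keeping dim probes added probes of complex IV and *Cycs* alone. The mean of linear folds hardly moved the values (median of the family -0.00296, against -0.00297 as reported). These settings could hardly change the order, so they say little about it. Complex V was the highest in 6 of the 6 and complex III the lowest in 5. The exception was normexp, where complex II was the lowest at -0.09. The median of complex V ran from -0.06 to 0.09 and that of complex III from -0.17 to -0.02. No scaling moved the family together, to a median of -0.12, and the median of all genes moved alike, to -0.10. Of the 82 genes, 15 lay above 0 and 27 below 0 in each of the 10 settings, and 40 changed side in at least 1. Leaving out no scaling and scaling to the median, which shift all genes alike, 29 lay above 0 and 37 below in each of the other 8 settings, and 16 changed side.

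**Figure D5:**
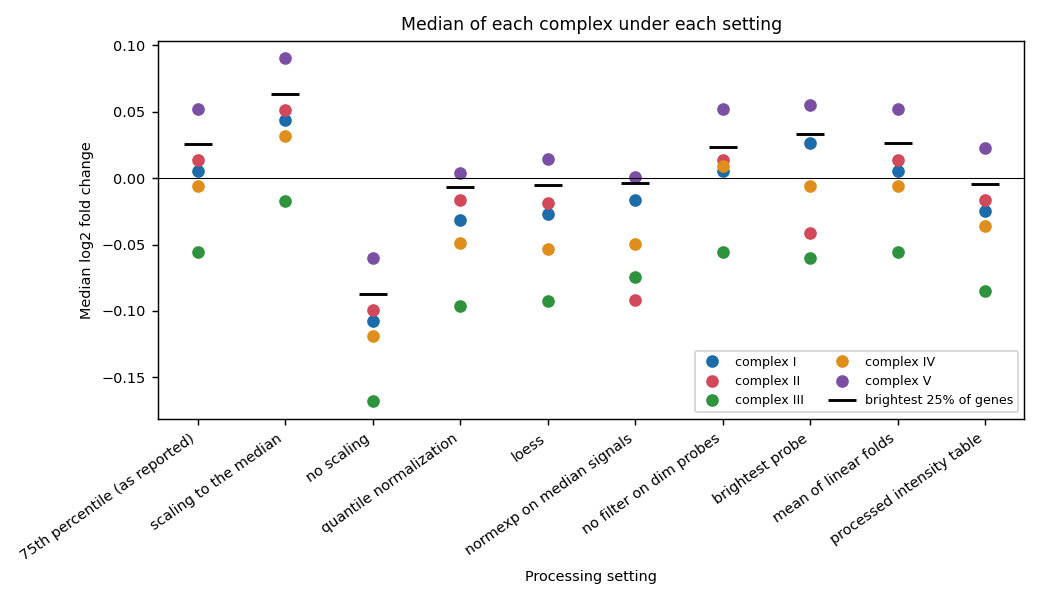
Median log2 fold change of each complex (coloured points) and of the genes of the brightest 25% (black bars) under each of the 10 processing settings named on the axis. The medians move together with the scaling, complex V stays at or above the bars and complex III below them.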

How the data were processed

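RNA of 1 *Dullard+/-* and 1 *Dullard-/-* embryo was measured on 1-colour Agilent arrays. The authors deposited the scanner output, with background-subtracted spot intensity values from Agilent Feature Extraction 10.10, and a table of processed intensity values, which equals those signals times a constant per array (4.91 and 5.20). The labels and the paper name different amplification kits and amounts of RNA, and the difference is not settled here.

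Per the labels and the scanner files, the values deposited are on a linear scale, and log2 was taken here. Spots marked as outliers on either array (206 of 43020) were left out, 0 were saturated, and 31242 and 29310 were well above background on the *Dullard+/-* and *Dullard-/-* array. Each array was scaled to its 75th percentile over spots that are not controls, replicate spots were averaged per probe, and a gene's value is the mean of log2 fold changes over probes well above background on both arrays. A gene's printed signal is the geometric mean over those probes. The error pools the 40 replicated probes nearest in signal, of 281, and divides by the square root of the spots. It covers the technical spread between spots, and the number of arrays limits the precision. Gene symbols came from RefSeq accessions through a table of GRCm38.p6, which named 30235 spots. Promoters and their coordinates are those of RefSeq for that assembly. Levels of different probes were not compared.

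With 1 array per genotype no test was run, and sizes of 1.5-fold and 1.2-fold describe differences. Genes named are the 3 highest and 3 lowest of each complex, the isoform families, genes with no probe well above background, the 3 brightest, the extremes of each list and *Ctdnep1*. Other genes were named after their values were seen. The symbol rule for the members uses no measured value, but the rule and the lists were chosen with earlier results of these data known. Alternatives were scaling to the median, no scaling, quantile normalization, loess (span 0.3), normexp (offset 50) on median signals, keeping dim probes, using a gene's brightest probe, the mean of linear folds and the processed table. The steps were tested on simulated arrays. Python 3.11.15, numpy 2.4.6, pandas 2.3.3, statsmodels 0.14.6, matplotlib 3.10.9, R 4.3.3 and limma 3.58.1 were used.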

Additional observations from a re-analysis of the deposited data

How the results depend on the processing

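No respiratory chain gene passed 1.5-fold as reported or under any of the 9 alternatives, so none had a difference of that size to reverse. Of the other genes recomputed, *Ctdnep1*, *Ppargc1a* and *Esrra* were past that size, and they kept their side of 0. Of the 82 genes of the family, 40 changed side in at least 1 setting. With the arrays scaled in any of the ways tried, the median over the family lay between -0.03 and 0.04. The largest moves of the medians came with no scaling, which shifts each gene by -0.11 by construction. Without scaling the median log2 fold change was -0.12 over the 82 genes, -0.11 for complex I, -0.10 for complex II, -0.17 for complex III, -0.12 for complex IV and -0.060 for complex V, with 15 genes above and 67 below 0, and -0.15 for assembly factors and for mitochondrial ribosomal proteins, -0.080 for cytosolic ribosomal proteins, -0.10 for the citric acid cycle and -0.063 for the regulators. The share of the family above 0 was 18.3% without scaling (all genes 30.9%), 63.4% with scaling to the median (59.1%) and 48.8% as reported (52%). Under normexp, the median of complex II was -0.092, and the cause was not tested. Of single genes, 642 of 738 values moved by less than the SD between probes of a gene in the family (0.0954), and 642 of 656 apart from no scaling. Many of these outcomes were fixed in advance. Scaling to the median and the processed table shift all genes by less than that SD, and no scaling by more. Keeping dim probes changed only *Cycs* of the 82. The brightest probe and the mean of linear folds cannot change the 59 genes with 1 probe. The shares thus say little about robustness. *Ndufb11* was at 0.02 and *Sdhc* at -0.09 by the brightest probe, and *Cycs* at -0.34 with its dim probe kept. *Ppargc1a* was at 0.40 with its own dim probe kept and at 0.33 under normexp, where *Esrra* was at 0.50. Counting *Ndufa4* with complex IV gave a median of -0.02 for complex I. No paired analysis was possible because each genotype has 1 array, and for the same reason no array could be left out. The planned setting without *Atp5s* and *Atp5sl* was not run, since neither is among the 85 genes, and the one without genes whose probes differ by over 1.5-fold removed none. Signal limits the dim genes, where the error from replicate spots reached 0.22 (*Cox6a2*), and 3 genes were not well above background.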
